A study of Mus musculus with 8 samples.

Results

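The genes of fatty acid oxidation and ketone body metabolism were followed in the retinal pigment epithelium (RPE) of mice without *Bbs8*. The set was a written list of 34 genes, found in the count files by Ensembl identifier, out of 31053 identifiers in all. 33 of them were among the 12889 genes that passed the filter on low counts, set at 1 CPM (counts scaled to a fixed library total) in at least 4 libraries, and the remaining member, *Cpt1b*, had 0 counts in all 8 libraries. The list was not chosen by its values in this comparison, although earlier results of the same libraries were known when it was drawn up.

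RPE sheets were isolated at P29 with trypsin, and total RNA was sequenced in 8 QuantSeq 3′ libraries, 4 from wild-type littermates (*Bbs8*+/+, the controls) and 4 from *Bbs8* knockout mice (*Bbs8*-/-), all of the strain C57/Bl6. Since *Bbs8* was deleted in the germline, retina and RPE of these animals were both without it. The sex of the animals was not determined, and each replicate was a separate animal, as the study's methods state. Libraries held 2495094 to 3093428 counts on genes in controls and 2389835 to 2736289 in knockouts, so that 3 counts corresponded to 0.970 to 1.26 CPM. *Ttc8* (ENSMUSG00000021013), the gene that encodes BBS8, was at 35.5, 53.0, 58.9 and 43.1 CPM in controls and at 6.16, 1.79, 5.60 and 5.24 CPM in knockouts, and every library matched its label in this respect.

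Mitochondrial β-oxidation shortens fatty acids that have been activated to acyl-CoA and carried across the inner membrane as carnitine esters, and it passes electrons to the respiratory chain and carbon to acetyl-CoA. The RPE ingests the shed tips of photoreceptor outer segments each day and is known to burn their fatty acids and to turn part of the acetyl-CoA into ketone bodies, which the neighbouring retina can use. PPAR nuclear receptors, with the coactivator encoded by *Ppargc1a*, are textbook regulators of these genes.

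In knockout RPE 3 members were higher and 0 were lower, at a threshold of 0.05 on the p of edgeR's quasi-likelihood test after Benjamini-Hochberg adjustment over all tested genes. The 3 were *Acsl3*, which activates long-chain fatty acids at the endoplasmic reticulum and on lipid droplets, *Hadh*, the mitochondrial dehydrogenase of the third step of β-oxidation for short and medium chains, and *Hsd17b4*, the multifunctional enzyme of peroxisomal β-oxidation. They made up 9.09% of the 33 tested members. Of all tested genes 12.3% were called in either direction, 5.46% higher and 6.8% lower. The share of called members was thus below that of both directions together and above that of higher calls alone. It rests on 3 genes, and the difference was not tested. At an unadjusted p under 0.05 there were 6 of the 33 members higher and 0 lower, against 1453 higher and 1563 lower of all 12889 tested genes. The fitted fold change was above 0 on the log2 scale in 26 of the 33 members (78.8%), and in 24 to 28 members under the alternative settings, against 51.8% of all tested genes. The median log2 fold change was 0.17 over the 33 members, 0.19 without *Pparg*, whose counts were too low for a fold, and 0.02 over all tested genes. The groups did not overlap in 2 members, *Acsl3* and *Hsd17b4*, and both were higher in knockouts. Over all tested genes 16% did not overlap, 7.42% with the knockouts higher and 8.62% with them lower. The 95% interval of the fold change lay within 1.5-fold in both directions for 17 of the 33 members, and for the other 16 it reached beyond 1.5-fold on at least 1 side, with that of *Acsl3* wholly above it.

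**Figure D1:**
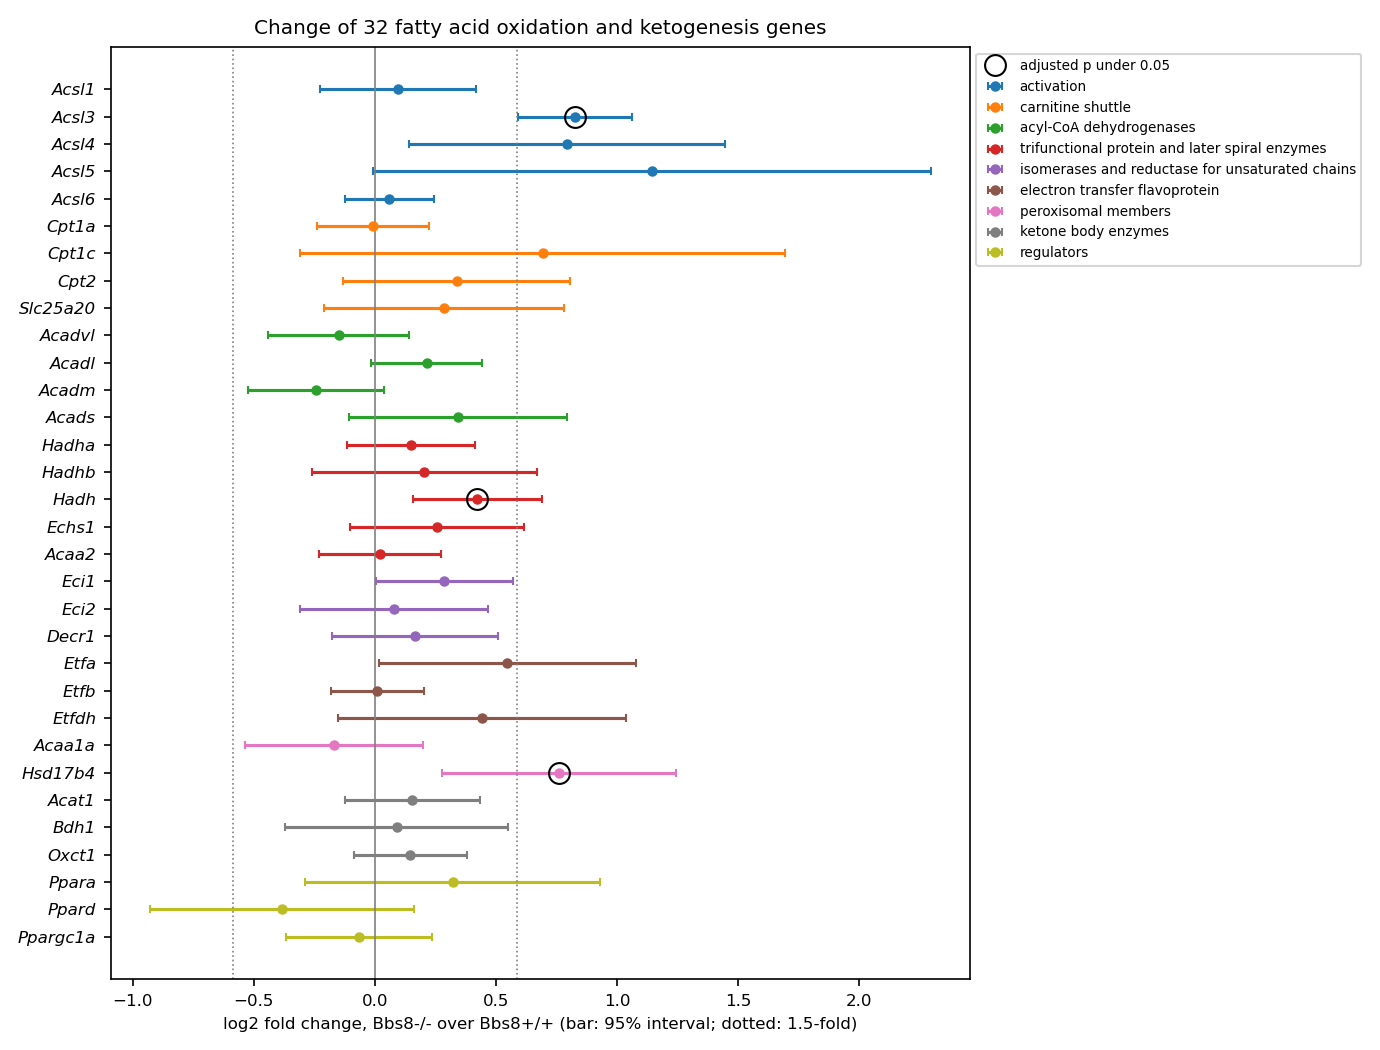
Log2 fold change of *Bbs8*-/- over *Bbs8*+/+ RPE with its 95% interval for 32 members, in order of role, with *Pparg* left out for its low counts and *Cpt1b* for having none. The intervals of *Acsl3*, *Hadh* and *Hsd17b4* lie above 0, and these genes pass the adjusted threshold. Those of *Acsl4*, *Etfa* and *Eci1* also lie above 0, but these genes do not pass it. No member lies below 0 with its whole interval.

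Summed over all members, the level was 2315.5, 2369.5, 2296.5 and 2222.7 CPM in controls and 2550.9, 2534.4, 2562.7 and 2573.9 CPM in knockouts. The sum was thus higher in each knockout than in each control library, and *Acsl3* was the member with the largest difference in mean CPM, from 94.5 to 168 CPM. RNA of other tissues moved in the same libraries. The 17 photoreceptor markers summed to 55895 to 60289 CPM in controls and 23091 to 23682 CPM in knockouts, and 13 of them were lower and 3 higher past the threshold. Lens markers went from 3517.5 to 3708.2 CPM to 481 to 526 CPM, with all 19 tested markers lower past the threshold. Erythrocyte markers went from 5155 to 5719 CPM to 1985 to 2218 CPM, with all 6 tested markers lower and 5 of them past the threshold. The 12 RPE markers summed to 39371 to 40411 CPM in controls and 47605 to 51330 CPM in knockouts, with 2 higher and 3 lower past the threshold. The larger sum came from *Ttr*, the transthyretin gene, which went from 20932 to 31748 CPM on average. The other 11 RPE markers together were at 18760 to 19307 CPM in controls and 17607 to 18108 CPM in knockouts, a sum taken after these values were seen, and the median log2 fold change of the list was -0.04 with 8 of 12 below 0. *Best1*, a chloride channel gene and 1 of the 12 RPE markers, stood at 0 to 2.00 CPM throughout, and the reason was not tested. All 7 Müller glia markers were fitted higher in knockouts, 3 of them past the threshold. They summed to 3073.5 to 3162 CPM in controls and 3637 to 3848 CPM in knockouts. Most of the larger sum was *Glul*, which went from 1199 to 1709 CPM on average. *Rlbp1*, which is also on the RPE list, held a large part of the Müller sum and was at 1839 and 1889 CPM. In bulk RNA, fewer cells of a type and less RNA per cell cannot be told apart, and the part of these shifts in the members' values was not tested. Adipocytes and skeletal muscle, which burn or store much fat, gave little signal, with *Adipoq*, *Plin1*, *Lep* and *Adrb3* at 0 counts in all libraries and muscle markers summing to at most 21.3 CPM.

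**Figure D2:**
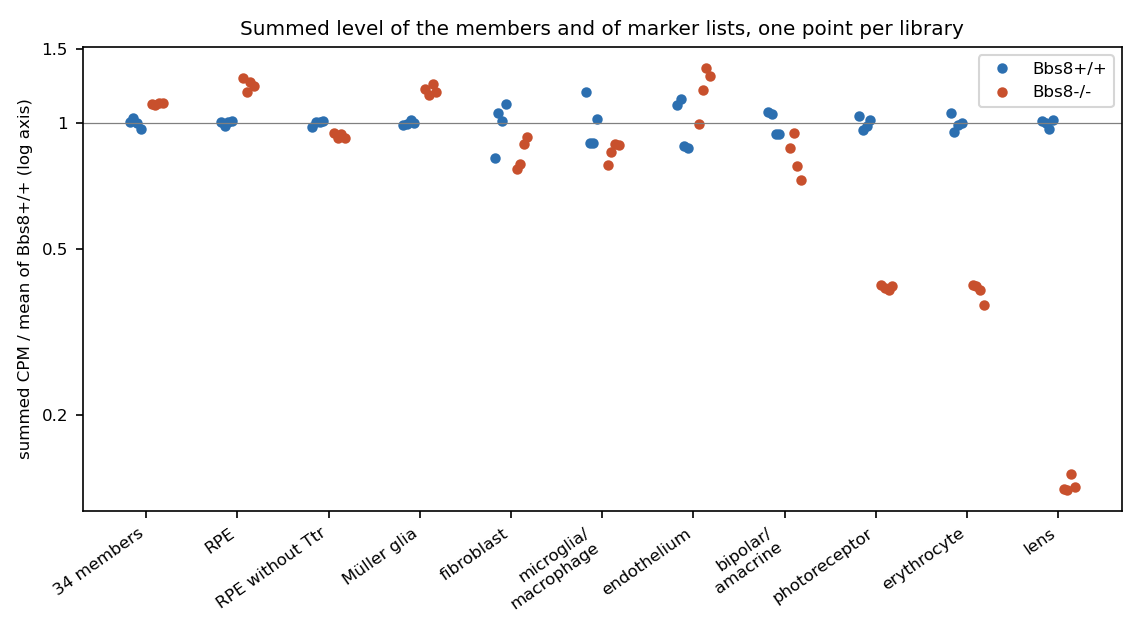
Summed TMM-scaled CPM of the members and of the marker genes of each tissue or cell type, divided by the mean of the *Bbs8*+/+ libraries, on a log axis with 1 point per library. Photoreceptor, lens and erythrocyte sums are lower in all 4 knockout libraries, and Müller glia sums are higher in them. The RPE sum is higher in the knockouts with *Ttr* and lower without it.

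The acyl-CoA synthetases, which trap fatty acids in the cell by joining them to coenzyme A, open the pathway. *Acsl3* (ENSMUSG00000032883) lies on the plus strand of chromosome 1 from 78657825 to 78707743 in GRCm38. It was the member with the smallest adjusted p, and *Hadh*, described with the enzymes of the cycle, was the next. The 250 bases upstream of the starts of these genes are shown with those of *Cpt1a*, which encodes the carnitine palmitoyltransferase at the entry to mitochondrial oxidation and did not pass the test, because they share promoter elements with each other and differ in 1 of the motifs searched. The windows precede the RefSeq starts, and that of *Cpt1a* lies inside the longer gene model of the annotation used for positions, which begins at 3322334 on chromosome 19. Sequences are from RefSeq on GRCm38.p6, written 5′ to 3′ in the direction of the gene, with capitals marking AGGTCA, the core motif of nuclear receptor sites, GGGCGG, the GC box, and CCAAT, each on either strand.
Acsl3, chr1:78657575-78657824, plus strand: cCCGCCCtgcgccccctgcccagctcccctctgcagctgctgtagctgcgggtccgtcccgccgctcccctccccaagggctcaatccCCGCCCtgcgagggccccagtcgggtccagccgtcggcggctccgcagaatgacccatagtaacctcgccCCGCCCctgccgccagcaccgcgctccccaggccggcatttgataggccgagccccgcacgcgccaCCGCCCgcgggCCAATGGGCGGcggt
Hadh, chr3:131272102-131272351, minus strand: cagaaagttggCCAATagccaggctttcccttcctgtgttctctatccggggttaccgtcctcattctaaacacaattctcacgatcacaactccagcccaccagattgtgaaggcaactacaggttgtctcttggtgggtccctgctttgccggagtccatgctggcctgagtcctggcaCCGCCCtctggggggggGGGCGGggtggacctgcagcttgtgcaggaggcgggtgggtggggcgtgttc
Cpt1a, chr19:3323051-3323300, plus strand: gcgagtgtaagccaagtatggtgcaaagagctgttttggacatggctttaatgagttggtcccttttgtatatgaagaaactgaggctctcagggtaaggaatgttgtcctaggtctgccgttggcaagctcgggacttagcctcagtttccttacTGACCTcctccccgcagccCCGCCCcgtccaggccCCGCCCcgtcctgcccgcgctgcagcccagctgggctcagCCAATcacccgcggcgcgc
The *Acsl3* window held 5 GC boxes and 1 CCAAT, adjoining the last GC box, and 75.6% of its bases were G or C. The *Hadh* window held 2 GC boxes and 1 CCAAT at 59.6% G or C, and the *Cpt1a* window 2 GC boxes, 1 CCAAT and 1 AGGTCA at 59.6%. Of the 34 members, 29 had a promoter in the RefSeq table, all but *Cpt1b*, *Acaa2*, *Decr1*, *Hsd17b4* and *Acat1*. AGGTCA stood in 7 of the 29 windows (24.1%), those of *Acadm*, *Acadvl*, *Acsl6*, *Cpt1a*, *Cpt1c*, *Echs1* and *Pparg*, against 14% of all 32851 promoter windows of that length. GGGCGG stood in 20 members (69%), against 32.7% of all windows, and CCAAT in 14 (48.3%), against 33.8%. The direct repeat AGGTCANAGGTCA, the element that PPAR and RXR bind, and its looser form AGGNCANAGGNCA were in 0 of the 29 windows, against 0.0335% and 0.338% of all. A match describes letters in a short window, and its absence says nothing about binding elsewhere.

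*Acsl3* was at 108, 93.2, 94.0 and 83.2 CPM in controls (94.5 ± 10.0, SD, n = 4) and at 162, 175, 172 and 163 CPM in knockouts (168 ± 6.47, SD, n = 4). All knockout libraries lay above all controls, and the spread was narrow in both groups. The fold was 1.77, a log2 fold change of 0.83 with a standard error of 0.115, at an edgeR adjusted p of 1.08e-06, and leaving out any library kept the adjusted p at or below 3.87e-05. *Utp14b*, a gene nested inside *Acsl3* on the same strand, had 28 to 83 counts per library, and its reads were listed separately. *Acsl4*, the synthetase that prefers arachidonic acid, was at 5.08, 8.95, 17.6 and 17.8 CPM in controls and 25.9, 25.1, 17.2 and 17.1 CPM in knockouts. The groups of *Acsl4* overlapped, and control libraries 1 and 2 were the lowest, so that the log2 fold change of 0.79 (standard error 0.322) had an adjusted p of 0.112. *Acsl5*, a synthetase of mitochondria and endoplasmic reticulum, was low, at 6.77, 1.49, 1.23 and 3.72 CPM in controls and 6.57, 12.5, 7.20 and 3.49 CPM in knockouts, and its fitted log2 fold change of 1.14, the highest of the members, had a 95% interval of -0.01 to 2.30 (adjusted p 0.218). *Acsl6*, a synthetase of neural tissue that favours docosahexaenoic acid, had the highest counts of the set, at 268 ± 13.9 CPM in controls and 279.6 ± 16.2 CPM in knockouts, and its interval of -0.12 to 0.24 on the log2 scale lay within 1.5-fold. *Acsl1*, the main synthetase of oxidative tissues, was at 75.3 ± 17.0 and 80.4 ± 14.7 CPM (log2 interval -0.23 to 0.42). A 3′ library counts transcript ends, so CPM was not divided by gene length, and order between genes is approximate because it depends on how well each transcript end is annotated.

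**Figure D3:**
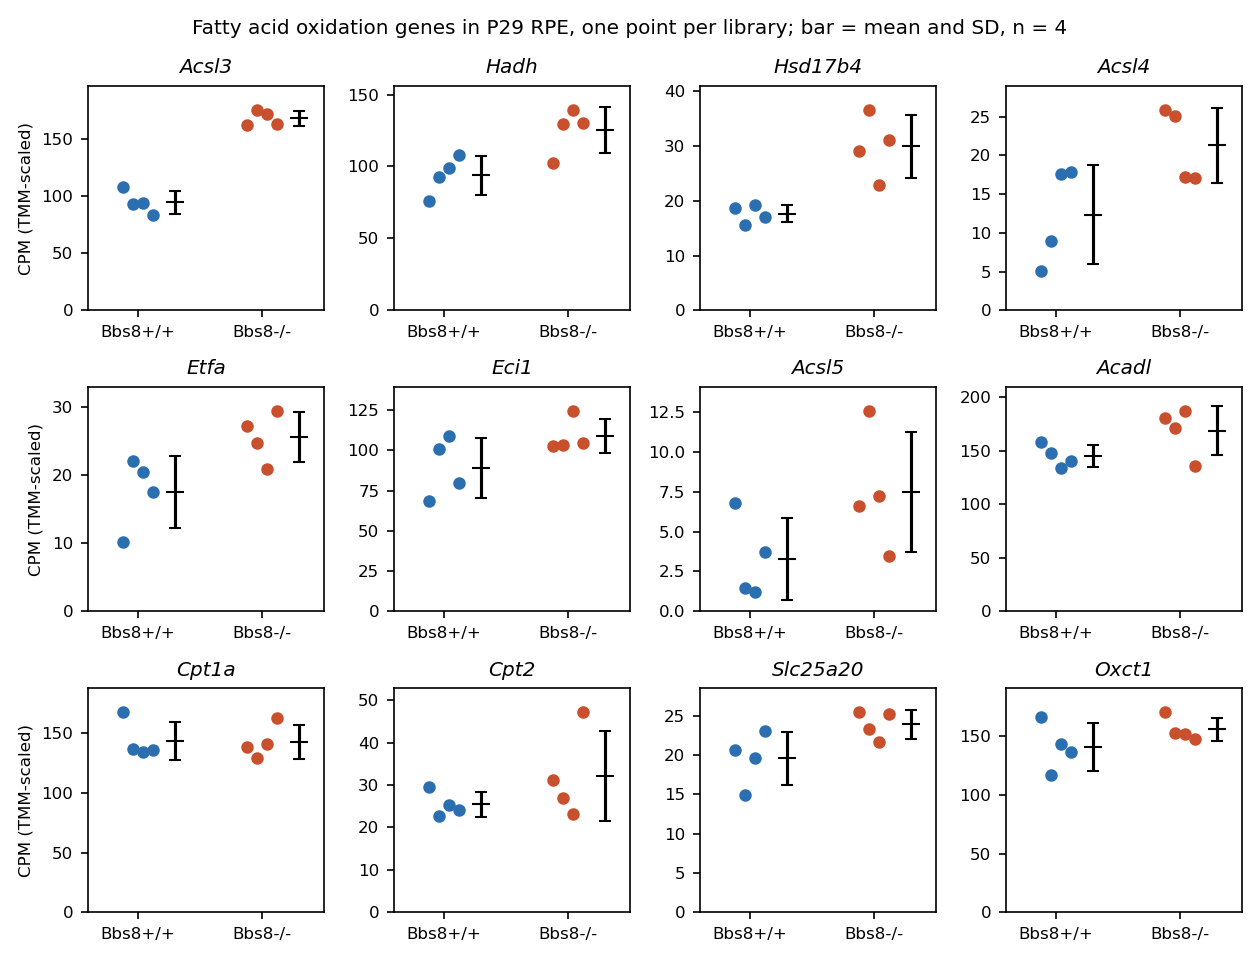
TMM-scaled CPM of 12 members in each library of *Bbs8*+/+ and *Bbs8*-/- RPE, with the mean and SD of 4 libraries beside the points. The groups are apart in *Acsl3* and *Hsd17b4*, overlap slightly in *Hadh*, and lie over each other in *Cpt1a*.

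The carnitine shuttle did not pass the test at any step. *Cpt1a*, the liver-type palmitoyltransferase on which control of the pathway is centred, was at 167, 136, 134 and 135 CPM in controls and 138, 129, 140.4 and 162 CPM in knockouts. Its groups covered the same range, with log2 fold change -0.01 and a 95% interval of -0.24 to 0.22, so that a change as large as that of *Acsl3* was outside the interval. The brain form *Cpt1c* was at 4.96 ± 1.59 and 8.05 ± 3.96 CPM, and the muscle form *Cpt1b* at 0 counts, which allows up to 3 counts per library. *Slc25a20*, the carnitine-acylcarnitine carrier, was at 20.6, 14.9, 19.6 and 23.0 CPM in controls and 25.5, 23.3, 21.6 and 25.2 CPM in knockouts (log2 interval -0.21 to 0.78, adjusted p 0.54). *Cpt2*, which returns acylcarnitine to acyl-CoA in the matrix, was at 29.5, 22.8, 25.3 and 24.2 CPM in controls and 31.2, 26.9, 23.2 and 47.2 CPM in knockouts. Only knockout library 4 stood above all controls by a wide margin in *Cpt2*, and its adjusted p was 0.412.

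Among the acyl-CoA dehydrogenases, which take the first step of the cycle for chains of different length, 0 of 4 passed the test, and the fitted directions differed. *Acadl*, for long chains, was at 158, 148, 134 and 140.5 CPM in controls and 181, 171, 187 and 136 CPM in knockouts, where knockout library 4 lay among the controls (log2 fold change 0.21, standard error 0.113, adjusted p 0.255). *Acadm*, for medium chains, was at 83.0 ± 5.28 CPM in controls and 70.0 ± 6.06 CPM in knockouts, a log2 interval of -0.53 to 0.04. *Acadvl*, for very long chains, was at 86.2 ± 9.83 and 77.5 ± 12.3 CPM, and *Acads*, for short chains, at 25.6 ± 5.99 and 32.6 ± 4.29 CPM. The 3 electron transfer genes that reoxidise these enzymes also stayed short of the threshold. *Etfa*, the α subunit of the electron transfer flavoprotein, was at 10.2, 22.0, 20.4 and 17.5 CPM in controls and 27.1, 24.7, 20.8 and 29.4 CPM in knockouts. Control library 1 was the lowest by a wide margin, and the log2 fold change of 0.55 (standard error 0.261) had an adjusted p of 0.194. Its partner subunit *Etfb* was at 231 ± 15.3 and 233 ± 10.6 CPM with a log2 interval of -0.18 to 0.20, and the difference between the subunits was not tested. *Etfdh*, which hands the electrons to ubiquinone, had means of 14.4 and 19.6 CPM (log2 interval -0.15 to 1.04, adjusted p 0.395).

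In the later steps of the mitochondrial cycle, *Hadh* was the member that rose. *Hadh* (ENSMUSG00000027984), on the minus strand of chromosome 3 from 131233419 to 131272101, was at 75.8, 92.5, 98.9 and 108 CPM in controls (93.8 ± 13.5, SD, n = 4) and 103, 129.7, 139 and 130.3 CPM in knockouts (125 ± 15.8, SD, n = 4). Knockout library 1 lay under the highest control, and the other 3 knockouts lay above all controls. The log2 fold change of 0.42 (standard error 0.131, 1.34-fold) had an edgeR adjusted p of 0.0265, and the call was lost when control library 1 (adjusted p 0.0806) or 2 (0.0694) or knockout library 2 (0.0706), 3 (0.101) or 4 (0.0746) was left out. The subunits of the trifunctional protein, which carries out the same steps for long chains, did not pass: *Hadha* was at 117 ± 19.9 and 130.1 ± 19.3 CPM and *Hadhb* at 28.0 ± 2.02 and 32.1 ± 10.9 CPM. The hydratase *Echs1* was at 49.8 ± 10.6 and 59.6 ± 10.6 CPM, and the thiolase *Acaa2*, which releases acetyl-CoA, at 113 ± 8.50 and 115 ± 15.1 CPM with a log2 interval of -0.23 to 0.27.

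Unsaturated fatty acids, which abound in outer segments, need isomerases and a reductase to enter the cycle. *Eci1*, an enoyl-CoA isomerase, was at 68.4, 101, 109 and 79.5 CPM in controls and 103, 103, 124 and 105 CPM in knockouts. The knockouts lay close together apart from library 3, the controls were spread, and the log2 fold change of 0.29 (standard error 0.139) had an adjusted p of 0.206. *Eci2* was at 38.7 ± 5.22 and 40.8 ± 7.47 CPM and the dienoyl-CoA reductase *Decr1* at 55.2 ± 9.60 and 61.9 ± 11.2 CPM, neither past the threshold.

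Peroxisomes shorten very long and branched chains before mitochondria take over. *Hsd17b4* (ENSMUSG00000024507) was at 18.6, 15.7, 19.2 and 17.1 CPM in controls (17.6 ± 1.59, SD, n = 4) and 29.1, 36.5, 22.8 and 31.1 CPM in knockouts (29.9 ± 5.67, SD, n = 4). Every knockout was above every control, with knockout library 3 the nearest to them. The log2 fold change was 0.76 (standard error 0.239, 1.70-fold) at an edgeR adjusted p of 0.0286, and the call was lost without control library 2 (adjusted p 0.0872) or 4 (0.0762) or knockout library 2 (0.114) or 4 (0.0629). The peroxisomal thiolase *Acaa1a* was at 52.2 ± 8.83 and 46.4 ± 9.98 CPM (log2 interval -0.54 to 0.20). Its near-identical copy *Acaa1b* had 0 to 4 counts per library, and since only uniquely mapped reads were counted the level of *Acaa1a* may be understated. For 4 further members, *Acsl5*, *Acadvl*, *Eci1* and *Etfdh*, another counted gene on the opposite strand lay within 1000 bases of the 3′ end, and whether counting used strand is not given in the sources used here, so their counts are less certain.

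Of the ketone body enzymes, 0 of 3 members passed the test. *Acat1* encodes the thiolase that joins acetyl-CoA units at the start of ketogenesis. It was at 67.0, 86.9, 88.3 and 75.1 CPM in controls and 96.9, 89.9, 80.0 and 86.0 CPM in knockouts. *Bdh1*, which interconverts acetoacetate and β-hydroxybutyrate, was at 41.0, 35.8, 33.1 and 21.9 CPM in controls and 21.8, 45.5, 41.2 and 31.8 CPM in knockouts. *Oxct1*, the transferase needed to burn ketone bodies, was at 166, 117, 144 and 136 CPM in controls and 171, 153, 152 and 148 CPM in knockouts. The groups overlapped in all 3 genes, with adjusted p of 0.561, 0.868 and 0.497 and upper 95% bounds of 0.43, 0.55 and 0.38 on the log2 scale.

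None of the 4 regulators passed the threshold. *Ppara*, the receptor that drives hepatic fatty acid oxidation, was at 13.2, 23.1, 20.8 and 11.1 CPM in controls and 18.5, 10.8, 24.8 and 31.1 CPM in knockouts (adjusted p 0.584). *Ppard*, the receptor found most broadly, was at 23.0, 15.3, 27.4 and 29.0 CPM in controls and 26.3, 13.3, 16.8 and 16.4 CPM in knockouts (adjusted p 0.432). In both receptors the libraries of 1 group covered most of the range of the other, and a change of 1.5-fold was within their intervals, -0.29 to 0.93 and -0.93 to 0.16. *Pparg*, the adipocyte receptor, had 0, 1, 4 and 7 counts in controls and 0, 3, 5 and 0 in knockouts, at the floor of detection in both groups. *Ppargc1a*, the coactivator of mitochondrial biogenesis, was at 83.6, 80.6, 129.6 and 112 CPM in controls and 82.9, 103, 81.6 and 119 CPM in knockouts, with a log2 interval of -0.37 to 0.24.

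Beyond the 34 members, 6 lists of related genes held 113 genes found in the files, 89 of them tested, with 13 higher and 6 lower past the threshold (21.3% of the tested genes, against 12.3% of all tested genes) and a median log2 fold change of 0.06. The lists were drawn up with earlier results of these libraries known, so the share does not stand as independent evidence. Among 5 tested ketone body genes, 0 were higher and 2 were lower, both of them transporters. *Slc16a6*, a carrier of ketone bodies, fell from 415 ± 20.5 to 274 ± 22.1 CPM (adjusted p 2.49e-06) and *Slc16a1*, the lactate and ketone body transporter MCT1, from 888 ± 43.9 to 736 ± 46.9 CPM (adjusted p 0.00873), a call lost when libraries were scaled by size alone. A list built around mitochondrial oxidation, which also held genes that act outside mitochondria, had 23 tested genes, 2 higher and 0 lower. *Echdc3* was at 4.91 ± 3.00 and 13.8 ± 0.989 CPM (adjusted p 0.0111). *Echdc1*, which removes a side product of fatty acid synthesis, was at 17.0 ± 2.99 and 28.1 ± 4.49 CPM (adjusted p 0.0476). The median of this list was 0.36. The call of *Echdc3* was lost without control library 4, and that of *Echdc1* when any of 7 of the 8 libraries was left out (all but knockout library 2), with no filter on low counts, and with the replicate number as a block.

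The peroxisomal list, 16 tested genes with a median of 0.11, had 2 genes higher and 0 lower. *Abcd3*, a peroxisomal importer of fatty acids, rose from 157 ± 11.2 to 217 ± 29.8 CPM (adjusted p 0.00192), beside *Hsd17b4* above. *Pex5*, the receptor that brings enzymes into peroxisomes, was at 3.90 ± 0.706 and 11.0 ± 3.92 CPM (adjusted p 0.0197), a call lost without control library 2 or 4 or knockout library 4. Fatty acid uptake, binding and lipolysis, 14 tested genes with a median of -0.06, had 2 higher and 2 lower. *Dbi*, the acyl-CoA binding protein, rose from 546 ± 41.8 to 759 ± 52.1 CPM (adjusted p 1.93e-05) and *Lipa*, the lysosomal acid lipase, from 72.6 ± 3.65 to 101 ± 9.85 CPM (adjusted p 0.0111, lost without knockout library 2). *Fabp5*, a fatty acid binding protein, fell from 34.2 ± 2.79 to 10.2 ± 9.55 CPM (adjusted p 3.17e-04), with 23.8, 9.67, 4.00 and 3.14 CPM in the knockouts, and *Vldlr*, a lipoprotein receptor, from 295 ± 27.8 to 235 ± 11.4 CPM (adjusted p 0.0158, lost without control library 2 or 4 and with scaling by size alone).

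The partners and targets of PPAR moved in both directions, 3 higher and 2 lower of 17 tested, with a median of 0.02. That median pooled both kinds of gene, and the called genes split by kind. Those called higher, *Angptl4*, *Plin2* and *Plin4*, were targets, and those called lower, *Ncor1* and *Ppargc1b*, were a corepressor and a coactivator. The remaining tested target, *Ucp2*, had a log2 fold change of 0.02 and was not called. *Plin2*, which coats lipid droplets, rose from 69.8 ± 9.86 to 111 ± 7.21 CPM (adjusted p 4.71e-04) and *Plin4*, of the same family, from 5.15 ± 1.70 to 16.0 ± 4.85 CPM (adjusted p 0.00212). *Ncor1*, a corepressor of nuclear receptors, fell from 563 ± 50.0 to 381 ± 17.0 CPM (adjusted p 2.67e-06) and the coactivator *Ppargc1b* from 56.4 ± 8.73 to 36.2 ± 4.28 CPM (adjusted p 0.0116, lost without control library 4). The fifth called gene, *Angptl4*, a secreted inhibitor of lipoprotein lipase, had an adjusted p of 0.021 that rose above 0.05 without control library 1 or 2 or knockout library 1 or 3. Some targets that serve as PPARα markers in liver gave almost no counts: *Cyp4a10* and *Cyp4a14* had 0 in all libraries and *Pdk4* 0 to 6. Fatty acid synthesis, the opposing pathway, had 4 genes higher and 0 lower of 14 tested, and its median was 0.30. The called share was 28.6%, against 12.3% of all tested genes. The called genes were desaturases, an elongase and a regulator. *Acly*, *Fasn*, *Me1*, *Acaca* and *Acacb* of this list were not called, with log2 fold changes of -0.24, -0.11, -0.12, 0.16 and 0.29. *Scd2* and *Scd1*, desaturases that make monounsaturated fatty acids, rose from 137 ± 20.4 to 243 ± 28.9 CPM (adjusted p 6.25e-07) and from 13.8 ± 6.09 to 33.2 ± 4.78 CPM (adjusted p 7.95e-04). *Srebf1*, the transcription factor of lipid synthesis, rose from 23.8 ± 12.9 to 49.6 ± 7.28 CPM (adjusted p 0.00425, lost with DESeq2), and *Elovl6*, an elongase, from 58.9 ± 3.62 to 84.6 ± 11.8 CPM (adjusted p 0.0126, lost without knockout library 1).

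**Figure D4:**
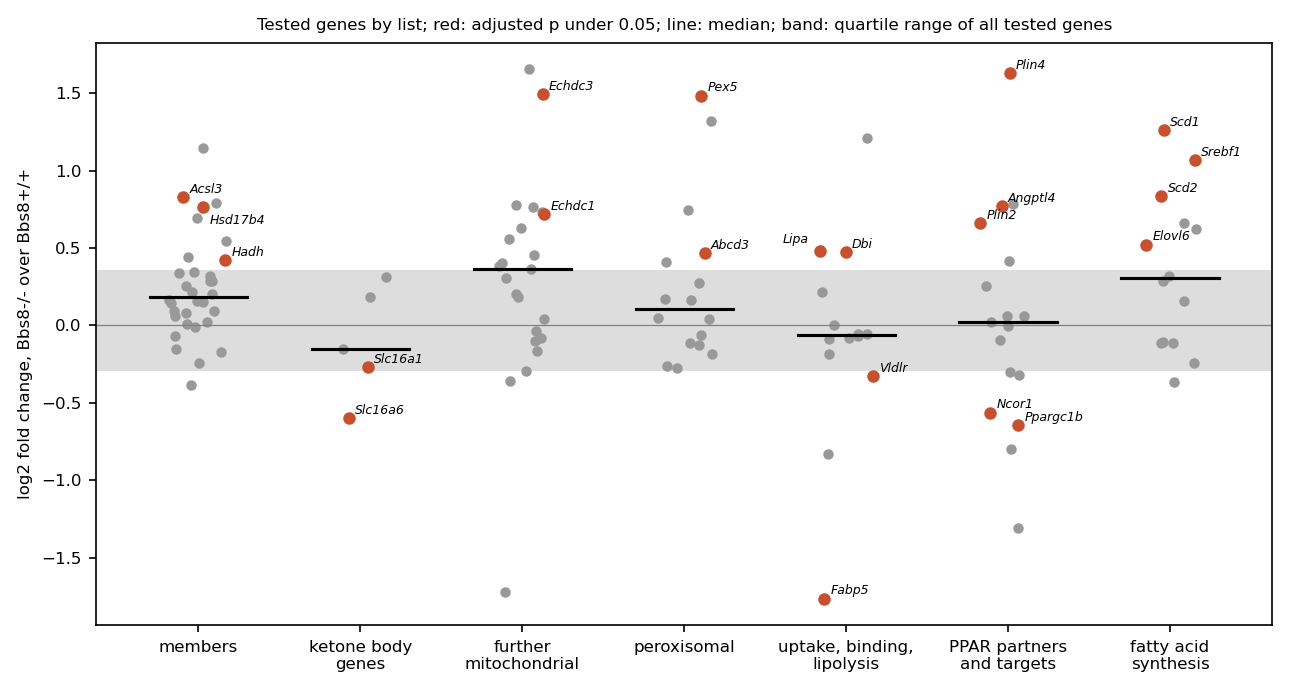
Log2 fold change of *Bbs8*-/- over *Bbs8*+/+ RPE for each tested gene of the members (without *Pparg*) and of 6 related lists, with the list median as a line, genes at an adjusted p under 0.05 named in red, and the grey band marking the quartile range of all tested genes. Called members and called fatty acid synthesis genes lie above 0, while the 2 called ketone body genes lie below it.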

How the data were processed

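The 8 QuantSeq 3′ libraries of P29 RPE were single-end. The authors trimmed reads with BBDuk, aligned them to mm10 with STAR, and ran htseq-count on the unique alignments, and the deposited files hold these raw counts by gene for each library. The strand setting is not given in the sources used here. Reads on no gene (17.02% to 20.61% of a library), ambiguous reads and reads that did not map uniquely (32.8% to 34.5%) stayed out of the library sizes. Symbols and positions came from the GENCODE annotation of GRCm38, the same build as mm10.

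Genes had to reach 1 CPM in 4 or more libraries. Counts were scaled by TMM and the genotypes compared with edgeR 4.0.16 (quasi-likelihood F test, two-sided, R 4.3.3), with Benjamini-Hochberg adjustment over 12889 genes at 0.05. Values are TMM-scaled CPM, given as mean ± SD over 4 libraries. The fit was tested on simulated data. The p-values measure the spread between animals.

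The members and lists were chosen with earlier results of these data known. Named were *Ttc8*, the called members and the next by adjusted p up to 8, the regulators, carnitine shuttle and ketone body enzymes, and up to 4 called genes of each related list. *Angptl4* was named beyond that rule, as were undetected genes, after their values were seen. A gene that the rule also named is not reported here. The alternatives were DESeq2 1.42.0, library size alone, TMM without photoreceptor, lens and erythrocyte markers, 3 filters, the replicate number as a block, and each library left out in turn.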

Additional observations from a re-analysis of the deposited data

Results flagged for a closer look

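In 7 of the 106 groups of 4 libraries checked, 1 library lay far from the other 3 by Dixon's test at its 95% level, and chance gives about 1 in 20 groups. Among the members these were *Cpt1a* in control library 1 (167.2 CPM, the highest control), *Acaa1a* in control library 1 (65.33 CPM, the highest), *Cpt1c* in knockout library 2 (2.15 CPM, the lowest knockout) and *Eci1* in knockout library 3 (124.4 CPM, the highest). Among the related genes they were *Ppargc1b* in control library 4 (69.5 CPM, the highest), *Plin2* in knockout library 2 (99.97 CPM, the lowest) and *Elovl6* in control library 1 (53.49 CPM, the lowest).

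Reads assigned to no annotated gene lie outside the comparison and were more frequent in knockouts. The lowest knockout library had 19.8% of its reads there, and the controls had 17.02% to 18.45%.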

How the results depend on the processing

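Over 15 alternative settings, 0 members were lower past the threshold in any. The number of members higher was 3 in the reported comparison and 1 to 3 with a library left out, and it was 1 without control library 2, knockout library 2 or knockout library 4. Of 480 log2 fold changes of members under the alternatives (*Pparg* left out for its low counts), 453 kept their direction and their side of the threshold, 9, the losses of *Hadh* and *Hsd17b4*, kept the direction only, and 18, all short of the threshold, changed sign. *Cpt1a* became 0.083 with library size scaling, 0.0074 with a filter at 5 CPM and 0.0040 with filterByExpr, and *Ppargc1a* 0.023 with library size scaling. With a library left out, values ran from -0.078 to 0.078 for *Cpt1a*, -0.18 to 0.066 for *Ppargc1a*, -0.0039 to 0.19 for *Acsl1*, -0.024 to 0.38 for *Hadhb*, -0.066 to 0.081 for *Acaa2*, -0.039 to 0.040 for *Etfb* and -0.068 to 0.26 for *Bdh1*. The summed RPE markers were at a ratio of 1.24 of knockout to control, and at 0.932 without *Ttr*, a setting chosen after seeing the data. The median of the members was 0.25 with scaling by library size alone, against 0.17, and the median of all genes then moved from 0.02 to 0.11. That scaling called 1005 genes higher and 657 lower (60.5% of calls higher), against 704 and 877 (44.5%) with TMM. With the replicate number as a block, 3 members were higher and 0 lower, the median was 0.16, and 650 and 827 genes of all were called. Deviations of same-numbered libraries correlated at -0.0285 to 0.00859, and only control library 4 and knockout library 4 correlated best with their own number. Correlations this small gave no sign of pairing by number. Whether libraries shared a litter or a preparation was not tested. At this depth the members under about 10 CPM had intervals too wide to show a change of 1.5-fold or its absence. The same held for some members with more counts, such as *Cpt2* (log2 interval -0.13 to 0.81) and *Echs1* (-0.10 to 0.61). Intervals reached beyond 1.5-fold in 16 of the 33 tested members.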
